A study of Mus musculus with 6 samples.

Results

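The genes described here encode the protein subunits of the mitochondrial respiratory chain, complexes I to V. They were chosen by name: every array probe whose gene symbol starts with Ndufa, Ndufb, Ndufc, Ndufs, Ndufv, Uqcr or Atp5, or is Cyc1, a Sdh subunit, or an isoform of Cox4 to Cox8. Ndufaf assembly factor genes (10 probes) were left out. The symbols came from the RefSeq accession of each probe. The rule found 115 probes of 86 genes, among 55681 probes of which 26300 were named, for 19897 genes. Complex I had 44 probes of 38 genes, complex II 6 of 4, complex III 15 of 9, complex IV 23 of 18 and complex V 27 of 17. The rule used names alone and no measured value.

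Cells came from mouse spinal cord at E12.5 and were sorted on Hb9::GFP, a reporter that marks spinal motor neurons. GFP-on motor neurons (MN) gave 2 arrays for embryos labelled mir-17~92 -/- ; Hb9::GFP (knockout label, KO) and 2 for embryos labelled WT ; Hb9::GFP (wild-type label, WT). GFP-off cells (nonMN) gave 1 array per genotype label. All 6 samples thus carry the reporter, and the labels name no drug or other agent. The labels do not say whether replicates came from separate embryos or from pools, so p-values measure only the spread between these arrays, whose small number limits precision. The GFP-off fraction is what remains after the sort and holds many cell types. In such bulk samples, fewer cells of a type and less RNA per cell cannot be told apart.

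Complex I takes electrons from NADH and complex II from succinate, complex III passes them to cytochrome c, and complex IV hands them to oxygen. Complexes I, III and IV pump protons, and complex V, the ATP synthase, uses the gradient to make ATP. A few subunits of complexes I, III, IV and V are encoded in mitochondrial DNA, but all of those measured here are nuclear genes. Several complex IV subunits have second isoforms known from muscle, heart, lung or testis. Nuclear respiratory factor 1 (NRF1), the ETS protein GABP and YY1 are known regulators of many of these genes.

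Promoter windows of 300 bases around the annotated start were matched for 69 of the 86 genes (RefSeq, GRCm38.p6). They were searched on both strands for the strict NRF1 core of 10 bases, the capitals in the lines below. It stood in 5 of the 69 windows (7.25%), against 1.07% of the windows of all 27025 genes in the table. A looser core, with any base at the sixth position and so containing the first, stood in 17 member windows (24.6%), against 5.19% of all. The YY1 core AAGATGGC stood in 10 member windows (14.5%), against 3.19%, and the ETS core CCGGAAGT in 5 (7.25%), against 4.31%. A match describes these letters only and is not a binding site. Stretches of 4 windows with the strict NRF1 core are shown, all upstream of the start, from complexes I, IV and V, to let the shared core be compared. Each is 60 bases long, 5′ to 3′ on the gene's strand, with the core in capitals.
Ndufa11, chr17:56717677-56717736, plus strand: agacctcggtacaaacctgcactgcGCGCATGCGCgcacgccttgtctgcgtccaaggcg
Cox6a1, chr5:115349086-115349145, minus strand: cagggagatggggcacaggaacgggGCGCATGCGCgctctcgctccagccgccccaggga
Atp5g2, chr15:102671055-102671114, minus strand: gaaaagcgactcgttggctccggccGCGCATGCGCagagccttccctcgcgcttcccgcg
Atp5k, chr5:108434415-108434474, minus strand: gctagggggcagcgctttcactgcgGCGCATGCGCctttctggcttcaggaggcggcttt

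Levels are given as the log2 of the processed signal minus the 75th percentile of the same array, so 0 is that percentile. The arrays differed in brightness: the 75th percentile of the intensity was 48.5 to 64.5 on both WT MN arrays and on the first KO MN array, and 341 to 550 on the other 3. Both KO MN arrays lay in row 1 of the slide and the other 4 in row 2, so genotype label and slide row cannot be told apart in motor neurons. Of 10 motor neuron markers listed, Chat, Slc18a3, Lhx3, Lhx4 and Nefl were higher in the GFP-on arrays at an adjusted p below 0.05 in limma, while Mnx1, the gene of the reporter, was not on a matched probe. Mir17hg, the host transcript of the deleted cluster, read 4.54 and 4.78 on the KO MN arrays, -2.38 and 2.73 on the WT MN arrays, 4.62 on the KO nonMN array and -1.23 on the WT nonMN array. It was thus higher in the libraries labelled knockout (limma, adjusted p = 0.0361 in motor neurons, where 1 of the 2 WT arrays was not well above background). Whether its probe lies in the deleted part is not known here, so directions below refer to libraries as labelled.

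Respiratory chain transcripts were well detected in both fractions. Of the 115 probes, 109 were well above background on all 6 arrays (94.8%, against 34.3% of all probes). Cox7b2 and Cox8c, isoforms known from testis, were not well above background on any array, which left 113 probes of 84 genes to test. The median level of the complex V probes was 5.60 and 5.94 on the KO MN arrays, 5.92 and 4.78 on the WT MN arrays, 5.78 on the KO nonMN array and 5.78 on the WT nonMN array. For complex I the same medians were 4.73 and 5.13, then 4.73 and 3.67, then 4.85 and 4.81. For complex II they were 3.54 and 3.83, then 2.94 and 2.60, then 3.90 and 3.64. The second WT MN array was the lowest for each of these 3 complexes. On the same scale, WT MN replicate 1 was above replicate 2 for 102 of the 113 probes, and KO MN replicate 2 was above replicate 1 for all but 8.

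**Figure D1:**
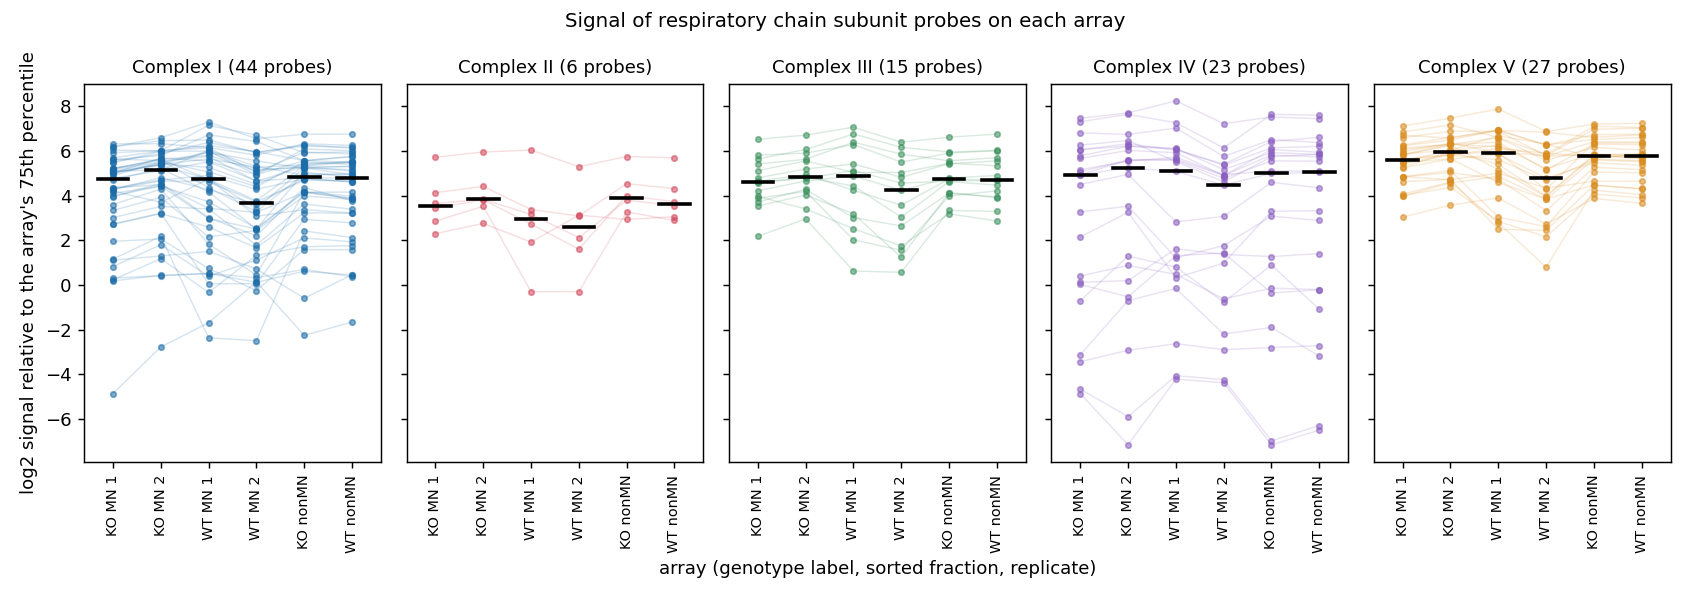
Log2 signal relative to the array's 75th percentile (y) on each of the 6 arrays (x), for the probes of each complex. Points are probes, thin lines join 1 probe across arrays, and bars are medians; the complex V median falls from 5.92 to 4.78 between the WT MN replicates and is 5.78 on both nonMN arrays.

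The arrays most alike over the 113 probes were the GFP-off arrays of opposite genotype label, with a median absolute difference of 0.11 log2. KO MN replicate 2 and the KO nonMN array differed by a median of 0.18, the KO MN replicates by 0.36 and the WT MN replicates by 0.75. Over all 33264 probes tested these values were 0.32, 0.45, 0.44 and 0.66. The WT MN replicates differed by more than the KO MN replicate and GFP-off pairs did. The median replicate SD of a member probe was 0.25 in KO MN and 0.53 in WT MN (n = 2 each).

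Between genotype labels in motor neurons, 15 member probes were higher and 2 lower in the KO-labelled arrays (limma, Benjamini-Hochberg over 33264 probes, adjusted p below 0.05). These 17 probes (16 genes) of 113 tested compare with 24.8% of all probes called, and 28 members had an unadjusted p below 0.05 (background 41.4%). By direction they are 13.3% higher and 1.77% lower, against 10.6% and 14.2% of all probes. The members' median difference was 0.30 log2, and that of all probes -0.20. With 1 probe per named gene the placement turned: 7 of 84 members were higher (8.33%) and 1 lower (1.19%), against 15.8% and 7.24% of 14918 genes, and the medians were 0.30 for members and 0.34 for all genes. Complex I had 5 probes higher and 1 lower, complex II 1 and 0, complex III 2 and 0, complex IV 3 and 1, and complex V 4 and 0. Their median differences were 0.28, 1.07, 0.30, 0.31 and 0.24 log2 in the same order. Without regard to the test, both KO MN arrays were above both WT MN arrays for 42 member probes (background 29.8%) and below them for 14 (background 39.7%).

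The count of calls depended on the arrays, the scaling and the model. With array brightness as a covariate it was 2 higher and 1 lower, which kept 3 of the 17 calls. Over all 33264 probes that setting gave 733 higher and 857 lower. With no filter on dim probes the count was 0 and 0, as it was over all 55669 probes. There, 18 member probes and 11500 of all probes had an unadjusted p below 0.05 (limma). Without WT MN replicate 2 the members' median was -0.12, and that of all probes was -0.27. Without KO MN replicate 2 these medians were 0.15 and -0.24, and without KO MN replicate 1 they were 0.49 and -0.13. Without WT MN replicate 1 they were 0.74 and -0.13. Calls lost when an array was left out are given with each gene below. Scaling to the median gave 33 higher and 1 lower (7280 and 2567 over all probes) and moved the median of all probes by 0.64. The members' median lay 0.50 above that of all probes under either scaling. This was fixed in advance, since such scaling shifts all probes of an array alike. The gap was 0.25 with quantile normalization, 1.18 with normexp and -0.04 with 1 probe per gene. Quantile normalization gave 3 and 0 (1574 and 392 over all probes), and normexp background correction 14 and 0 (901 and 429 over all probes). Markers of microglia and macrophages moved with the genotype label (7 of 11 probes higher in KO MN). Their summed level was 23.8 and 26.1 in KO MN and 7.70 and 12.2 in WT MN. Motor neuron markers moved too: 4 of 10 probes, of Prph, Isl1, Slc5a7 and Isl2, were higher in KO MN and 0 lower. Their summed level was 95.9 and 108 in KO MN and 46.2 and 38.6 in WT MN. For progenitor and dividing cells it was 139 and 168, then 89.7 and 66.4 (3 of 11 probes higher, 1 lower). Calls of the other marker lists are given with the processing. The part of these cells in the result was not tested.

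Ndufs8, an iron-sulfur core subunit of complex I, had the highest positive difference of any member. It read 1.15 and 2.18 in KO MN, -2.37 and -2.49 in WT MN, 2.42 in KO nonMN and 2.12 in WT nonMN. Both WT MN values were not well above background and lay below the other 4. The ratio of group means was at least 14.6-fold higher in KO MN, computed against the lowest signal called above background on each array. The test used the measured values and not this bound (4.10 log2, limma, adjusted p = 0.0085). Ndufs8 was no longer called with normexp background correction or with no filter on dim probes.

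Ndufa11, an accessory subunit in the membrane arm of complex I, read 2.73 and 3.21 in KO MN, 0.05 and 0.06 in WT MN, 2.94 in KO nonMN and 2.78 in WT nonMN. Here too the WT MN arrays stood alone at the low end. The difference was 2.92 log2 (SE 0.517, adjusted p = 0.0108). One probe of Ndufb6, another accessory subunit, read 3.60 and 4.29 in KO MN, 1.83 and 0.44 in WT MN, 4.16 in KO nonMN and 3.88 in WT nonMN, a difference of 2.81 (SE 0.62, adjusted p = 0.018). Ndufa4, first assigned to complex I and later found with complex IV, and 1 probe of Ndufb5 were also higher, by 1.78 (SE 0.563, adjusted p = 0.0469) and 1.76 (SE 0.555, adjusted p = 0.0466). The other probes of Ndufb6 and Ndufb5 differed by 0.67 and 0.30 and were not called. The calls of Ndufb6, Ndufb5 and Ndufa4 were lost without KO MN replicate 2 or without WT MN replicate 2, those of Ndufb5 and Ndufa4 also without KO MN replicate 1, and that of Ndufa11 without KO MN replicate 2.

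Sdhb, the iron-sulfur subunit of complex II, gave a different result on each of its probes. Probe A_55_P1953980 read 2.86 and 3.52 in KO MN, -0.30 and -0.30 in WT MN, 3.27 in KO nonMN and 2.89 in WT nonMN. The WT MN arrays were again the only low ones, and the difference was 3.49 log2 (SE 0.528, adjusted p = 0.00902). Probe A_66_P116126 of the same gene read 5.71 and 5.95 in KO MN, 6.04 and 5.29 in WT MN, 5.75 in KO nonMN and 5.69 in WT nonMN. The groups overlapped on it, with a difference of 0.17 (SE 0.537, adjusted p = 0.84). The call on the first probe was made under 15 of the 16 alternatives that tested it, the most of any member. It was lost with no filter on dim probes. Among the alternatives, those without a nonMN array and with the MN arrays alone repeat the main fit by construction. Sdha, the flavoprotein that binds succinate, was not called (1.46 log2, SE 0.575, adjusted p = 0.0881).

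In complex III, Cyc1, the heme protein cytochrome c1, read 3.88 and 4.18 in KO MN, 2.02 and 1.55 in WT MN, 3.98 in KO nonMN and 4.21 in WT nonMN. The WT MN arrays lay below the other 4, and the difference was 2.25 log2 (SE 0.521, adjusted p = 0.0201). One probe of Uqcr10, a small accessory subunit, was higher by 1.97 (SE 0.536, adjusted p = 0.0305), and its other probes had differences of -0.12 and -0.12. Uqcrc1, a core protein, and Uqcrfs1, the Rieske iron-sulfur subunit, had differences of 1.55 and 1.57 and missed the threshold (adjusted p = 0.0663 and 0.118, limma). The calls of Cyc1 and Uqcr10 were lost when KO MN replicate 1, KO MN replicate 2 or WT MN replicate 2 was left out.

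In complex IV, Cox6b1, which helps to join the monomers of the enzyme, read 3.27 and 3.53 in KO MN, 1.21 and 1.76 in WT MN, 3.08 in KO nonMN and 2.89 in WT nonMN. The groups of motor neuron arrays did not overlap, and the difference was 1.91 log2 (SE 0.524, adjusted p = 0.0312). One probe each of Cox7a2l, known from supercomplex assembly, and of Cox7c was higher, by 2.05 (SE 0.587, adjusted p = 0.0355) and 1.78 (SE 0.519, adjusted p = 0.0374). Their other probes were not called, with differences of 0.27 and 0.15 for Cox7a2l and 0.31 and -0.42 for Cox7c. The catalytic-core partners Cox4i1, Cox5a and Cox5b were not called, with differences of 0.46, 1.29 and -0.005 log2. Calls for Cox6b1 and Cox7c were lost without KO MN replicate 1 or 2, that of Cox7c also without WT MN replicate 2, and that of Cox7a2l without KO MN replicate 2 or either WT MN replicate.

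In complex V, Atp5d, the delta subunit of the F1 head, read 4.63 and 4.72 in KO MN, 2.49 and 2.44 in WT MN, 4.46 in KO nonMN and 4.32 in WT nonMN. The WT MN arrays lay below the rest, with a difference of 2.21 log2 (SE 0.505, adjusted p = 0.0194). Atp5pb, the b subunit of the peripheral stalk, was higher on both of its probes, by 2.55 (SE 0.696, adjusted p = 0.0309) and 1.69 (SE 0.537, adjusted p = 0.0481). One probe of Atp5j2, the f subunit in the membrane, was higher by 2.16 (SE 0.518, adjusted p = 0.0219). The other, brighter Atp5j2 probe differed by -0.24 and was not called. The main F1 subunits Atp5a1 and Atp5b were not called, with differences of 0.41 and -0.08. The c-ring subunits Atp5g1, Atp5g2 and Atp5g3 were not called either, and ranged from -0.54 to 1.05. The calls of these 3 genes were lost without KO MN replicate 2, those of Atp5pb and Atp5j2 also without WT MN replicate 2, and those of Atp5d, Atp5j2 and the second Atp5pb probe without KO MN replicate 1.

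The 2 lower calls came from complexes I and IV. Probe A_55_P2073582 of Ndufb11, an accessory complex I subunit, read -4.86 and -2.78 in KO MN, -1.69 and 0.13 in WT MN, -2.26 in KO nonMN and -1.66 in WT nonMN, and was above background on 5 of the 6 arrays. Only 1 of the 2 KO MN arrays was above background. The fitted difference was -3.04 log2 (SE 0.819, adjusted p = 0.0297), and -1.99 with the dim value set to the lowest signal called above background on its array, while the other probe of the gene differed by 0.26. Cox4i2, an isoform known from lung and from low oxygen, was lower by -1.63 (SE 0.522, adjusted p = 0.0492). Both lower calls were lost with quantile normalization, with normexp background correction and with no filter on dim probes. That of Cox4i2 was lost as well with array brightness as a covariate and with the replicate number as a block. Without KO MN replicate 1 or WT MN replicate 2 neither was called, and Cox4i2 was also lost without KO MN replicate 2 and with median scaling.

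Genes with more than 1 probe showed how far probes named for the same gene differed. Whether such probes detect the same transcript was not checked. There were 22 such genes with 51 tested probes, and 9 had a called probe. In 8 of the 9 at least 1 other probe was not called, and only Atp5pb was called on all its probes. Of the 10 called probes in these genes, 9 were not the brightest of their gene, against 29 of all 51 probes. The sign of the difference was shared by all probes in 14 of the 22 genes. The median spread between the lowest and highest difference within a gene was 0.98 log2 between genotype labels in motor neurons, and 0.11 between the GFP-off arrays. Between fractions the median spread was 0.16 within the KO label and 0.83 within the WT label. The spread passed 1 log2 in 11 genes for the genotype label in motor neurons, in 9 for the fractions within the WT label, in 1 within the KO label and in 0 between the GFP-off arrays. Comparisons that include the WT MN arrays were thus those with the wide spreads; the part of brightness or of probe position in this was not tested.

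**Figure D2:**
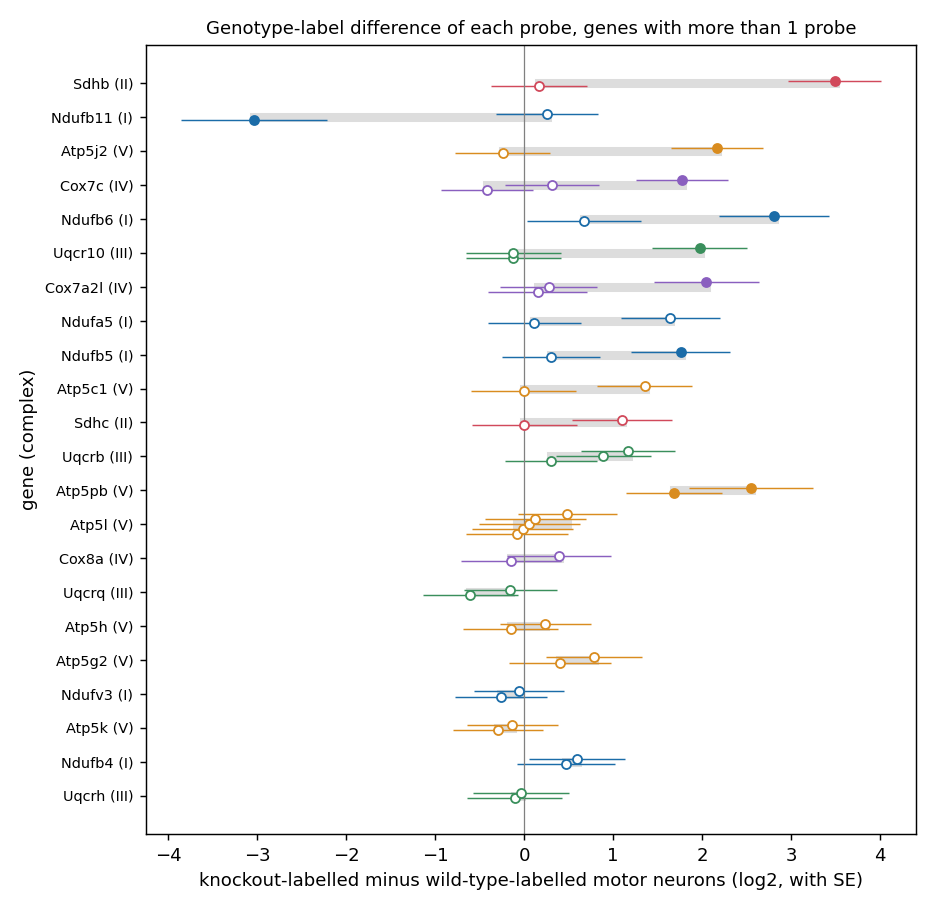
Difference between KO-labelled and WT-labelled motor neurons (x, log2, with the fitted SE) for each tested probe of the 22 genes with more than 1 probe (y, complex in brackets). Filled points passed the adjusted p threshold and grey bars span the probes of a gene; Sdhb ranges from 0.17 to 3.49 and Atp5pb has both probes filled.

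Between fractions, no member probe was called in either direction in motor neurons against non-motor neurons (limma, additive model with genotype label; 0 of 113, background 0.797%; 5 at an unadjusted p below 0.05, background 19.1%). By direction the background was 0.604% higher and 0.192% lower. The median difference was -0.31 log2, against -0.09 for all probes, with a median SE of 0.489. All 4 MN arrays were above both nonMN arrays for 3 tested probes (background 9.42%) and below both for 15 (background 14.9%). The 3 were Ndufa4l2, Atp5g1 and Ndufs7, at 1.22, 0.46 and 0.44 log2. Beside this, the summed level of 8 erythroid marker genes was 247 to 581 on the MN arrays and 1494 and 1515 on the nonMN arrays, and their part was not tested. Markers of neural crest and sensory cells went the other way, with a summed level of 34.2 to 65.1 on the MN arrays and 6.72 and 7.60 on the nonMN arrays, and 2 of 5 probes, Foxd3 and Sox10, called higher. The interneuron gene Evx1 was called higher too, 1 of 10 interneuron probes; the part of these cells was not tested either. Among probes above background on all 6 arrays, the most negative difference was that of the Uqcr10 probe called above, -1.73 log2 (SE 0.555, adjusted p = 0.152).

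The fraction difference was also taken within each genotype label. Within the KO label the median was -0.08 log2, 97 of 113 probes lay within 0.5 of 0, and none was called (background 0.0%; 1 at an unadjusted p below 0.05, Ndufa4l2, background 7.56%). Within the WT label the median was -0.42, 51 probes lay within 0.5 of 0, and 2 were called, both lower (background 2.54% in either direction, 1.04% higher and 1.5% lower). One was Ndufs8, at least 20.0-fold higher on the WT nonMN array than in WT MN, where neither array was well above background. Its call used the measured difference, -4.55 log2, and not this bound. The other was Sdhb probe A_55_P1953980 (-3.19 log2, SE 0.646, adjusted p = 0.0424). Each comparison set 2 MN arrays against 1. Over all probes the medians were -0.14 log2 within the KO label and 0.01 within the WT label. The share of all probes within 0.5 of 0 was not counted, so 97 and 51 have no background beside them. The interaction of genotype label and fraction passed the test for 0 of 113 probes (background 0.0%; 7 at an unadjusted p below 0.05, background 8.44%). The fraction difference was therefore not called as differing between the labels for any member.

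**Figure D3:**
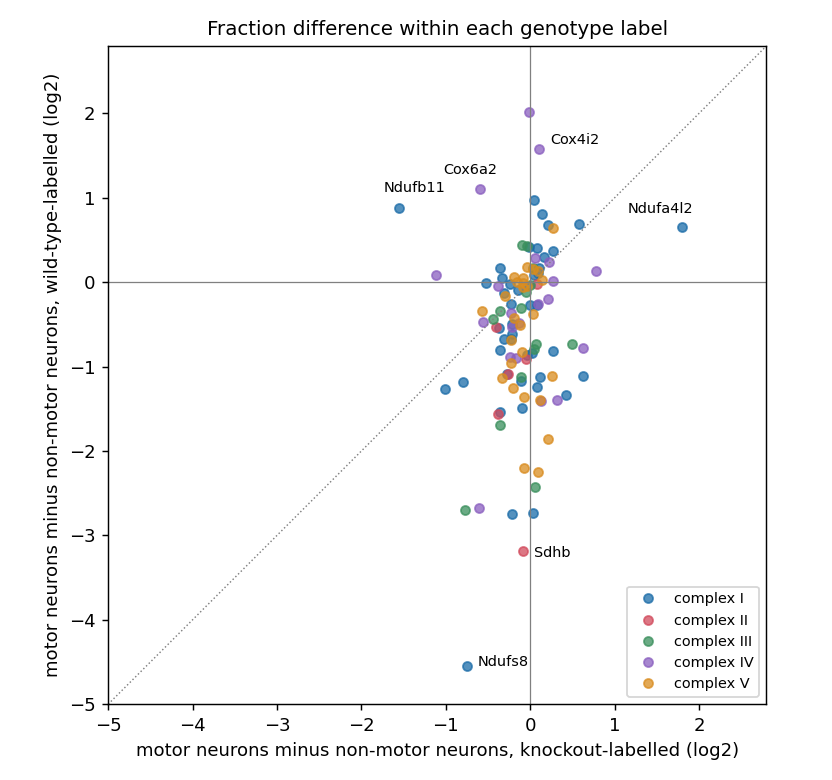
Motor neuron minus non-motor neuron difference (log2) within the KO-labelled arrays (x) and within the WT-labelled arrays (y); each point is 1 of the 113 tested probes, coloured by complex, and the dotted line marks equal differences. Most points lie near 0 on x (97 within 0.5) and spread downwards on y, to -3.19 for Sdhb; Ndufs8, below it, rests on WT MN signals not well above background.

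All 15 probes called higher between genotype labels had both WT MN values below both nonMN values. How many of all probes called higher share this placement was not counted, so it is not shown to be particular to members. The KO MN mean of the 15 was also nearer than the WT MN mean to the mean of the nonMN arrays. The same held for 82 of the 113 members (72.6%) and for 68.8% of all probes. The comparisons share the MN arrays, so this placement is not a separate result. Between the GFP-off arrays, 1 per label and without a test, the median difference was 0.06 log2 for members and -0.03 for all probes. Of the 113 members 108 lay within 0.5, and the share of all probes that did was not counted. Only 2 members were over 2-fold higher with the KO label (background 2.69%) and 1 over 2-fold lower (background 5.98%), and all 3 were tissue isoforms: Cox6a2 (1.98 log2), Cox8b (1.29 log2) and Ndufa4l2 (-1.05 log2).

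The isoforms known from particular tissues are given on every array. Cox6a2, the heart and muscle isoform, read -0.71 and 1.29 in KO MN, 0.80 and -0.77 in WT MN, 0.89 in KO nonMN and -1.09 in WT nonMN, so that each genotype label had high and low arrays. Cox8b, another muscle isoform, was above background on 4 of 6 arrays and read -3.13 and -0.70 in KO MN, -0.16 and -2.20 in WT MN, -1.90 in KO nonMN and -3.19 in WT nonMN. Beside them, the summed level of the skeletal and cardiac muscle markers, all 6 of them on probes, was 35.5 and 151 in KO MN, 87.3 and 15.4 in WT MN, 178 in KO nonMN and 72.3 in WT nonMN. The KO MN replicate, WT MN replicate and nonMN array with the higher marker sum also had the higher Cox6a2 value in each pair; the part of muscle cells in these values was not tested. All 6 marker genes were well above background on both KO MN arrays and 4 were on both WT MN arrays.

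Cox4i2 read 0.02 and -0.53 in KO MN, 1.31 and 1.43 in WT MN, -0.36 in KO nonMN and -0.21 in WT nonMN, and only the WT MN arrays were high. Cox6b2, an isoform known from testis, read 0.11 and 0.19 in KO MN, 1.62 and 1.37 in WT MN, 1.27 in KO nonMN and 1.40 in WT nonMN. Only the KO MN arrays were low for it, and the difference of -1.34 log2 missed the threshold (SE 0.508, adjusted p = 0.0799, limma). Cox7a1, a heart and muscle isoform, read 0.40 and 0.87 in KO MN, 0.47 and -0.62 in WT MN, -0.14 in KO nonMN and -0.21 in WT nonMN, with overlap between the genotype labels and between the fractions. Ndufa4l2, a paralogue of Ndufa4 known from low oxygen, read 1.11 and 1.30 in KO MN, 1.50 and 0.71 in WT MN, -0.59 in KO nonMN and 0.46 in WT nonMN. All 4 motor neuron arrays were higher than both GFP-off arrays, but the fraction difference of 1.22 log2 was not called (SE 0.5, adjusted p = 0.232).

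**Figure D4:**
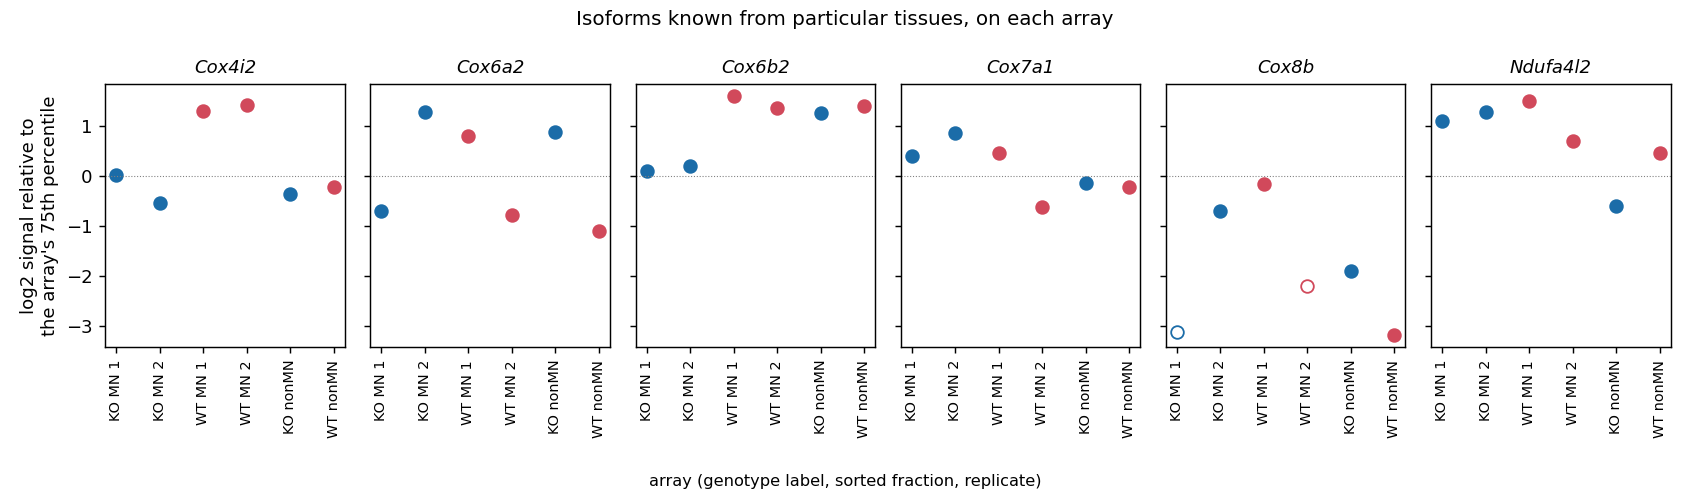
Log2 signal relative to the array's 75th percentile (y) on each of the 6 arrays (x) for 6 isoforms known from particular tissues; blue points are KO-labelled, red WT-labelled, and open points were not well above background. Ndufa4l2 is above 0.7 on all 4 MN arrays and at most 0.46 on the nonMN arrays, and the Cox6a2 values of each group pair differ widely.

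Genes of related functions were set beside the subunits from lists. Among respiratory assembly factors, 13 of 40 tested probes were higher and 2 lower in KO MN, with a median of 1.08 log2. Among TCA cycle enzymes 9 of 20 were higher and 0 lower (median 1.08), and among glycolysis genes 7 of 32 were higher and 1 lower (median 0.30). The mitochondrial biogenesis regulators had 4 of 18 higher and 2 lower (median 0.58), and the carriers and outer membrane proteins 2 of 19 higher and 0 lower (median 0.71). Over all probes, 10.6% were higher and 14.2% lower, with a median of -0.20. With 1 probe per named gene, 15.8% were higher and 7.24% lower, with a median of 0.34. This is above the glycolysis median, which was taken over all 32 probes of that list. The lists were not taken with 1 probe per gene, so these medians are unlike measures. These counts stand as descriptions, and no list was tested as such.

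Suclg1, a subunit of succinyl-CoA ligase, read 2.36 and 3.24 in KO MN, -0.44 and 0.03 in WT MN, 3.23 in KO nonMN and 2.83 in WT nonMN. It was higher in KO MN by 3.01 log2 (SE 0.555, adjusted p = 0.0118). Suclg2 was at least 3.06-fold higher, since neither WT MN array was well above background. Pgk1, a glycolytic kinase, was higher by 3.43 (SE 0.565, adjusted p = 0.00956), and the glucose transporter Slc2a3 by 3.39 (SE 0.852, adjusted p = 0.0249), or 3.04 with the WT MN array that was not well above background set to its lowest signal called so. Among regulators, Tfam, which packages and transcribes mitochondrial DNA, was at least 12.8-fold higher on 1 probe and at least 5.37-fold on another. Nrf1, the gene of NRF1, and Gabpb1, of a GABP subunit, were lower on 1 probe each (-2.46 and -2.06 log2, adjusted p = 0.0224 and 0.0309, limma), each above background on 1 of the 2 KO MN arrays; they were named after their values were seen. The other Nrf1 probes differed by 0.99 and -0.34 and the other Gabpb1 probe by 0.87, and none of these was called. Gabpa, of the other GABP subunit, was higher on 1 probe (2.43 log2, adjusted p = 0.0307), with 1 of the 2 WT MN arrays above background, and differed by 0.71 on the other, which was not called. Among assembly factors, Coa5 was at least 4.96-fold higher on 1 probe and Ndufaf3 at least 8.06-fold higher. The other Coa5 probe differed by -1.17 log2 and was not called. The carriers Ucp2 and Slc25a5 were higher by at least 4.0-fold and by 2.50 log2. Probes of a gene parted here as well: Ldha, chosen after its values were seen, was higher by 2.93 on 1 probe and lower by -1.88 on another. In motor neurons against non-motor neurons, only Eno2, the neuronal enolase, was called among these lists (2.44 log2, SE 0.446, adjusted p = 0.0441, limma), and it was higher on all 4 MN arrays.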

How the data were processed

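Cy3-labelled RNA of sorted cells was measured on 1-colour Agilent arrays. Agilent Feature Extraction 10.5.1.1 is the scanner software per the file headers, and version 9.1 per the submitters' processing notes. Each deposited scanner file holds a processed intensity for every spot, corrected for background, with other flags for background and saturation. The authors' deposited value table is in log2 and equals log2 intensity minus the array's 75th percentile within 0.01 for 99.7% to 99.9% of probes per array. No spot was saturated.

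Spots of a probe were averaged and the 75th percentile subtracted. Probes were named through the RefSeq accession in a GRCm38.p6 table, since the files used here have no gene name column, so members whose probes carry another identifier are not counted; 26300 probes were named and 29381 were not. The files' build is mm9, so probe coordinates are not given. Testing took the 33264 probes that 2 or more arrays showed well above background, in limma 3.58.1 (R 4.3.3), with lmFit, eBayes and Benjamini-Hochberg adjustment at 0.05. Genotype labels and the interaction used 4 group means (2 residual degrees of freedom); fractions used an additive model (3). A single nonMN array was assumed to vary like the MN arrays. The smallest p of an exact two-sided permutation test for a single probe, 2 arrays a group, is 0.333. The fits were tested on simulated data: with the moderated spread large changes were recovered and most small ones were not, and an earlier simulation with the raw spread recovered no change between genotype labels. A probe that was not called is thus not shown to be unchanged. Alternatives covered scaling, background, filter, probe choice, brightness, blocks and left-out arrays.

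The members and lists were chosen with earlier results of these data known. Named probes were the top 5 calls per direction and comparison, the highest and lowest member per complex, core subunits, tissue isoforms, genes with more than 1 probe, and 2 per list; the other called members (Ndufa4, Cox6b1 and Atp5d) and Ndufs7 were named after their values were seen. The marker lists other than motor neuron and muscle gave, as probes called higher and lower in KO MN: progenitor and dividing 3 and 1 of 11, interneuron 1 and 1 of 10, neural crest and sensory 1 and 0 of 5, erythroid 2 and 0 of 9, endothelium 2 and 0 of 6, microglia and macrophage 7 and 0 of 11, and mesenchyme 0 and 0 of 7. The motor neuron list gave 4 and 0 of 10 and the muscle list 3 and 0 of 7.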

Additional observations from a re-analysis of the deposited data

Results flagged for a closer look

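For 8 member probes the motor neuron minus non-motor neuron difference was positive on both KO-labelled MN arrays and negative on both WT-labelled ones. The interaction, the difference between these fraction differences, did not pass the test for any of them (limma, adjusted over 33264 probes). It was 1.23 log2 for Uqcrc1, 1.36 for Atp5md, 1.75 for Ndufb5, 1.40 for Cox5a, 1.095 for Ndufs4, 1.71 for Cox6b1, 1.73 for Ndufa4 and 2.07 for Atp5d. The 8 come from complexes I, III, IV and V. Each fraction difference was taken from a single nonMN array of that label. How many of all tested probes show this pattern was not counted, so the 8 are not shown to be more than the background.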

How the results depend on the processing

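The 15 higher and 2 lower calls between genotype labels in motor neurons became 33 and 1 with median scaling, 3 and 0 with quantile normalization, 14 and 0 with normexp background, 23 and 2 with probes above background on all 6 arrays, 7 and 1 with 1 probe per gene, 2 and 1 with array brightness as a covariate, and 0 and 0 with no filter on dim probes (limma; 18 at an unadjusted p below 0.05). Over all probes the split of higher and lower calls was 3522 and 4733, against 7280 and 2567 with median scaling. The split was 1574 and 392 with quantile normalization, 901 and 429 with normexp and 733 and 857 with array brightness. With probes above background on all 6 arrays it was 2560 and 3706, and with no filter 0 and 0. With 1 probe per gene it was 2353 and 1080, where the median over all genes was 0.34 and that of members 0.30. Leaving out 1 array at a time gave 2 to 30 higher and 0 to 2 lower calls. The authors' value table, whose values are nearly those used here, gave 15 and 2, the same 17 probes. The MN arrays alone gave the same 17 as well, which was fixed in advance. Each nonMN group has 1 array and so adds no residual spread, and leaving these arrays out cannot change this comparison. With the replicate number as a block, which the labels do not tie to a shared embryo or day, the calls were 14 higher and 1 lower; the replicate differences correlated at -0.221 over 19075 probes. The crossed pairing, chosen after seeing the data, gave 22 and 2. In motor neurons against non-motor neurons, 0 members were higher under every alternative run, and the main count of 0 lower became 1 with the replicate block, 1 in replicate 1 arrays only, 2 within the WT-labelled arrays, and 0 to 2 with 1 array left out. The interaction gave 0 under every alternative run. No called value changed sign; among named probes, 74 genotype values lost and 27 gained a call, and 101 genotype and 95 fraction values that were not called moved by more than the spread. The causes were not tested. Signal over background limits Ndufs8, Cox8b, 1 Cox7c and 1 Ndufb11 probe.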
